A study of Oryza sativa with 12 samples.

Results

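Drought was compared with control in leaves of APO, the rice (Oryza sativa, indica) cultivar that the series title calls tolerant. The comparison holds 6 of the 12 libraries of the series, chosen by the cultivar and treatment in their labels: 3 from control plants and 3 from plants under drought, which the title gives as 50% drought. The labels used here give no plant age, genotype beyond the cultivar, duration of drought or hour of sampling. All 6 were made from polysome-bound RNA of leaf, the mRNA that carries ribosomes. The 6 libraries of the cultivar IR64, called susceptible in the title, again 3 control and 3 drought, entered the fits to estimate the spread between libraries and to test whether a change differed between cultivars. Whether the libraries of a group are separate plants is not stated in the sources used here, so p-values measure a spread between libraries that may be technical. Total RNA was not used here, so more mRNA and more ribosome loading of the same mRNA cannot be told apart. In a whole leaf, fewer cells of a type and less RNA per cell cannot be told apart either.

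A drying leaf makes abscisic acid, a hormone that is bound by receptors which then inhibit clade A protein phosphatases 2C and so free SnRK2 kinases to activate bZIP transcription factors. Their targets include late embryogenesis abundant (LEA) proteins and dehydrins, hydrophilic proteins that protect membranes and enzymes as cells lose water, and enzymes of osmolytes such as proline and galactinol. Leaves under prolonged drought close their stomata, lose photosynthetic capacity and can move nitrogen out of the chloroplast, as in senescence.

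Values of single libraries below are levels in nuclear-scaled TPM, TPM being transcript abundance per library total, rescaled so that the 12 chromosomes' loci without rRNA sum to 1000000 in each library. TPM is per transcript length, so levels can be set beside each other. The rescaling was needed because rRNA took very different shares of the libraries, as the plot of library make-up shows. Nuclear loci held 33.0, 77.5 and 5.04% of deposited TPM in control 1, 2 and 3 and 13.3 and 76.4% in drought 2 and 3. The library labelled APO drought 1 had 1.21% on them and 98.5% on rRNA genes. The library labelled drought 1 had 9976 nuclear loci above 0, against 22789 to 31980 in the other 5. Depth is known only in relative terms, as the ratio of coverage to FPKM, which was lowest in control 3 (1.10) and highest in control 2 (4.09). Multiplied by the share on nuclear loci, the ratio was 0.412, 3.17 and 0.0555 in control 1, 2 and 3. It was 0.0262 in the library labelled drought 1 and 0.174 and 2.94 in drought 2 and 3.

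**Figure D1:**
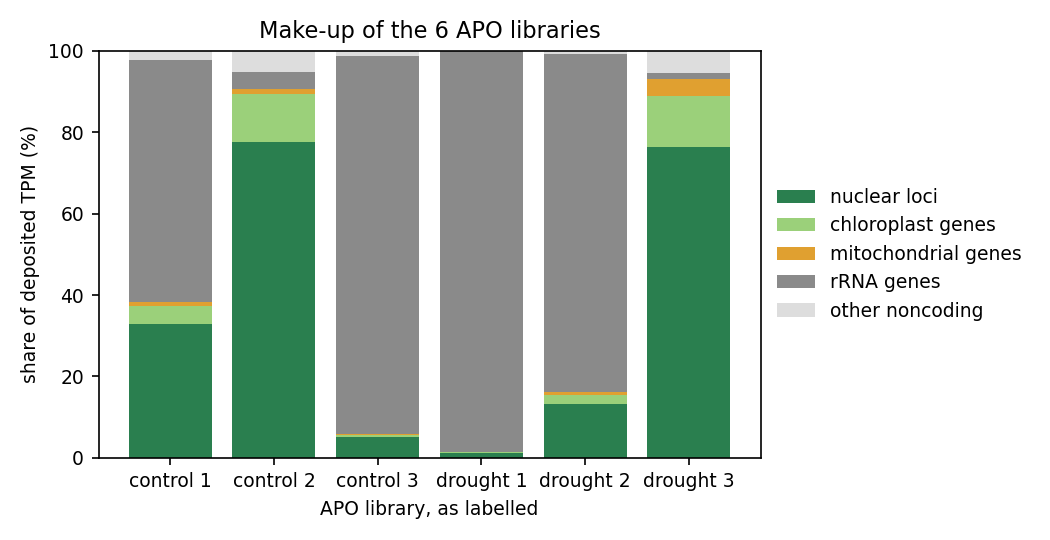
Share of deposited TPM (%, y axis) on nuclear loci, chloroplast genes, mitochondrial genes, rRNA genes and other noncoding genes in each of the 6 APO libraries (x axis). Nuclear loci made up 77.5% in control 2 and 76.4% in drought 3, and 5.04% in control 3 and 1.21% in the library labelled drought 1.

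The library labelled APO drought 1 lacked the genes typical of its cultivar label. Genes typical of a cultivar were chosen without the library being counted and always without the library labelled drought 1. In such a gene every remaining library of the cultivar stood at 8 or more. Each also stood at 8 times or more the level of every remaining library of the other cultivar. The genes counted thus differ from library to library. In the library labelled drought 1, 0 of 17 APO-typical genes lay above 1 and 3 of 8 IR64-typical genes did. Of 7100 loci at 8 or more in each of the other APO libraries, 5439 (76.6%) were above 1 there. The other 5 APO libraries had 17 of 17, 20 of 20, 17 of 17, 21 of 23 and 22 of 22 APO-typical genes above 1, and 0 of 8, 4 of 12, 10 of 17, 1 of 9 and 3 of 10 IR64-typical ones, in the order control 1, 2 and 3 and drought 2 and 3. The share of IR64-typical genes in the library labelled drought 1 was no higher than in control 3 and near that of control 2 and drought 3. These shares rest on different genes and on libraries of unlike depth on nuclear loci. That depth was 0.0262 in the library labelled drought 1 against 3.17 in control 2 and 2.94 in drought 3. What the shares show of its cultivar label was not tested. Across the nuclear loci, control 1 and 2 had a Spearman correlation of 0.886 and drought 2 and 3 of 0.729, while the library labelled drought 1 lay between 0.419 and 0.585 and control 3 between 0.394 and 0.529 with the other APO libraries. Gene lists and named genes are therefore described with the 4 libraries control 1 and 2 and drought 2 and 3 (10 libraries in the fit), and their calls are given again with all 6 (12 libraries in the fit). No library was moved to another group.

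In the 4-library comparison 22812 loci were tested, of which 1551 (6.8%) rose and 1734 (7.6%) fell in drought at an adjusted p under 0.05 (limma; 14.4% in either direction), with a median log2 difference of -0.24 over all loci. With all 6 libraries 26192 loci were tested, of which 247 (0.943%) rose and 546 (2.08%) fell (3.03% in either direction), with a median of -0.63. The loci called with all 6 were mostly called with 4 as well: 243 of the 247 rises and 481 of the 546 falls, and 0 changed direction. Among the 1551 rises, the library labelled drought 1 was above the mean of control 1 and 2 in 595 and at 0 in 864. Among the 1734 falls it was below that mean in 1197. Control 3 was above both other controls in 820 of the rises and above both drought 2 and 3 in 109. Separation of the groups was common: in 25.7% of loci drought 2 and 3 both lay above control 1 and 2 and in 37.8% both lay below, against 4.69% and 14.9% for 3 against 3. Below, a gene is said to rise or fall when it was called in the 4-library comparison. A pair of counts for a gene list gives rises first and falls after it. Its background among all loci is 6.8% and 7.6% with 4 libraries and 0.943% and 2.08% with all 6. In deposited TPM with 4 libraries it is 509 and 801 of 18587. An error after a log2 difference (drought minus control, on the log2(TPM + 1) scale) is its limma standard error there, with 2 libraries a group. The 4-library count was 1022 without control 1, 1153 without control 2 and 1217 without drought 2. The count of 793 with all 6 was 201, 319 and 406 without control 1, 2 and 3, 3063 without the library labelled drought 1, 318 without drought 2, and 440, 500 and 466 without IR64 control 1, IR64 control 2 and IR64 drought 2.

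LEA proteins and dehydrins had the highest median among the gene lists. Of 36 members tested 23 rose, 4 fell and 9 were not called, with a median of 5.03 against -0.24 over all loci. The counts were 12 and 1 of 38 with all 6 libraries, 21 to 23 and 0 to 1 with 1 of the 4 left out, and 21 and 2 of 32 in deposited TPM. The median with all 6 was 2.33. The 39 loci of the list together held 0.771, 0.825 and 0.672% of nuclear TPM in control 1, 2 and 3, 1.37% in the library labelled drought 1, and 10.7 and 5.93% in drought 2 and 3. Drought 2 and 3 stood apart from all other libraries in this share, and the library labelled drought 1 was above each control.

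Rab16A (Os11g0454300, chromosome 11, 15342877 to 15343671), a dehydrin, was the most abundant member in drought. It stood at 30.01, 25.4 and 119.9 in the 3 controls, 2639.5 in the library labelled drought 1 and 44915 and 22006 in drought 2 and 3. Both kept drought libraries lay far above the controls, and the library labelled drought 1 lay between them and the controls, above each control. Its neighbour RAB16B (chromosome 11, 15336192 to 15337158) stood at 10.1, 11.5 and 18.7 in the 3 controls, 592 in the library labelled drought 1 and 12966 and 5985 in drought 2 and 3, a log2 difference of 9.55 ± 0.883 (adjusted p = 0.000198; 8.003 ± 0.991, adjusted p = 0.00175 with all 6). The 2 loci named RAB21 beside them, Os11g0453900 and Os11g0454000, rose by 9.32 ± 0.708 and 9.12 ± 0.685. These 4 neighbours are similar in sequence, and how the authors' counting split reads among them is uncertain. Across all 6 libraries, Rab16A, RAB21 at Os11g0453900 and RAB21 at Os11g0454000 were also called.

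OsLEA3-1 (chromosome 5, 26927607 to 26928882), a LEA protein, stood at 21.3, 13.6 and 22.03 in the 3 controls, 945 in the library labelled drought 1 and 12705 and 9428 in drought 2 and 3. Every drought library was above every control. LIP9, a dehydrin with a clear level in control leaves, stood at 139, 121 and 164 in the 3 controls, 1298 in the library labelled drought 1 and 8199 and 5822 in drought 2 and 3, and rose by 5.73 ± 0.505 (adjusted p = 0.000137; 0.00175 with all 6). In OsLEA25 (chromosome 11, 15223376 to 15224746) the kept libraries were as far apart, at 4.22, 3.14 and 23.2 in control 1, 2 and 3 and 6198 and 4284 in drought 2 and 3. The library labelled drought 1 was listed at 0 for it, and it was not called with all 6 (5.21 ± 2.37, adjusted p = 0.247). OsLEA16 rose by 9.67 ± 0.739 and OsLEA18 by 8.82 ± 1.27. When all 6 were used, OsLEA3-1, OsLEA16 and OsLEA18 were also called.

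Of the 4 falls in the LEA list 3 were ASR genes, named for abscisic acid, stress and ripening: OsASR5 (Os11g0167800), OsAsr1 and OsAsr2 (Os01g0963600). OsAsr2 at Os01g0963600 stood at 3050.2, 5020.5 and 1701 in the 3 controls, 847 in the library labelled drought 1 and 1152 and 669 in drought 2 and 3. OsASR5 stood at 2728, 1924 and 1152 in the 3 controls, 1329 in the library labelled drought 1 and 338 and 271 in drought 2 and 3, so that the library labelled drought 1 sat within the controls. Both were abundant in control leaves. Asr3 and Asr4 went the other way, with log2 differences of 6.59 ± 0.914 and 4.77 ± 0.654. The fall of OsAsr2 was -2.15 ± 0.594, and leaving out any 1 of the 4 libraries ended the calls of OsAsr2, OsASR5 and OsLEA11. In the 6-library comparison, OsAsr2 at Os01g0963600 and OsASR5 were not called.

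**Figure D2:**
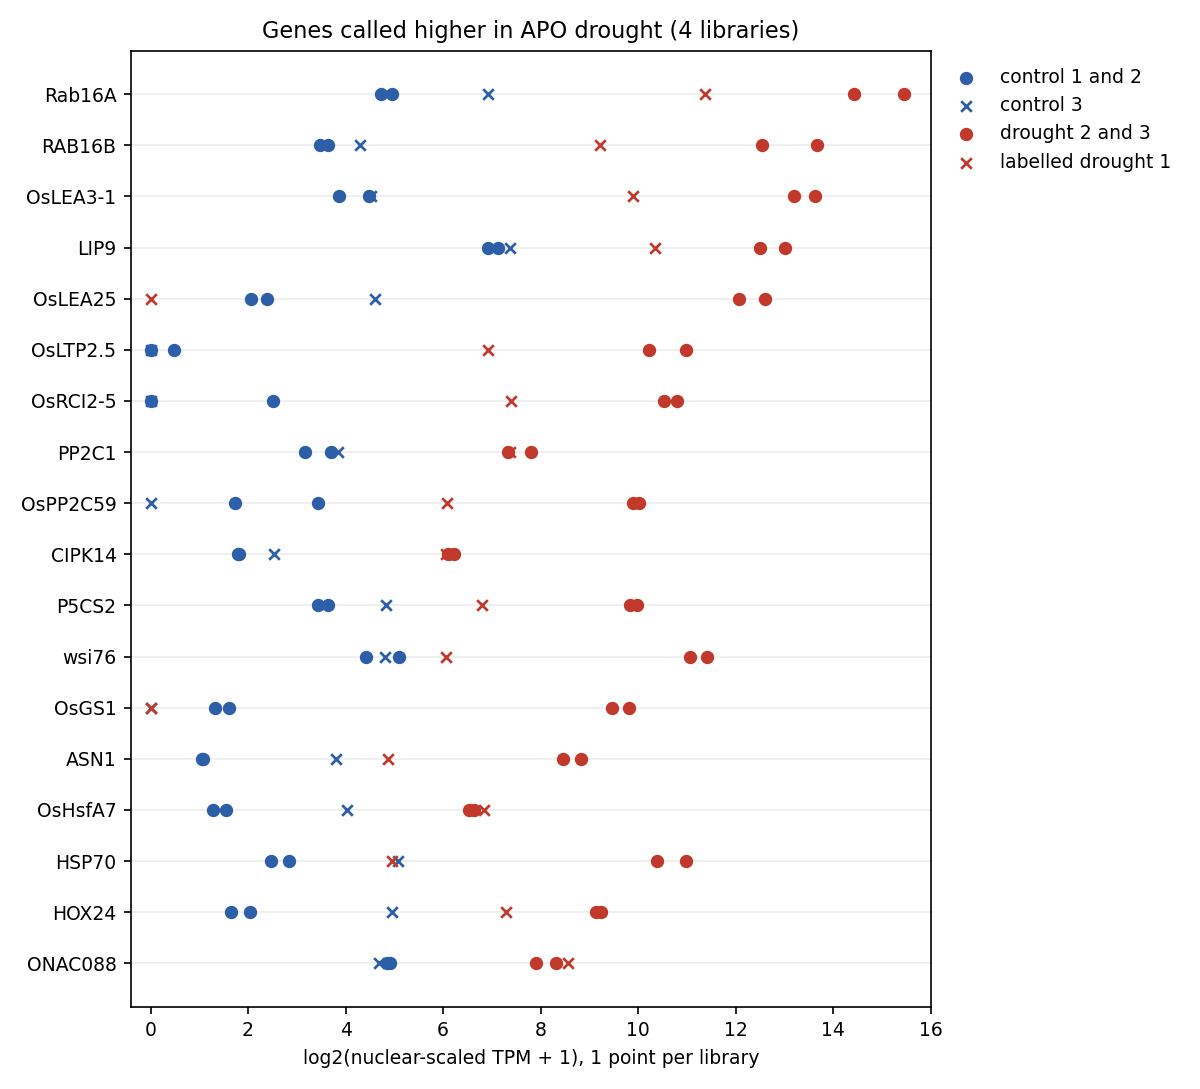
Level in each of the 6 APO libraries, as log2(nuclear-scaled TPM + 1) on the x axis, of 18 genes called higher in drought with 4 libraries (rows); circles are the 4 libraries compared and crosses are control 3 and the library labelled drought 1. Drought 2 and 3 lie right of control 1 and 2 in every row, while the library labelled drought 1 lies right of all controls for Rab16A and CIPK14 and at 0 for OsLEA25 and OsGS1.

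Genes outside that list which were named for the size or the adjusted p of their rise included lipid transfer proteins. The lipid transfer protein OsLTP2.5 (chromosome 5, 27345715 to 27346293) stood at 0, 0.397 and 0 in the 3 controls, 121 in the library labelled drought 1 and 2014 and 1196 in drought 2 and 3, a log2 difference of 10.36 ± 1.29 (adjusted p = 0.000704). OsLTPd6, another lipid transfer protein, went from 0, 2.5 and 11.5 in control 1, 2 and 3 to 1291 and 2019.8 in drought 2 and 3, with 102 in the library labelled drought 1. In both genes the 3 drought libraries lay above the 3 controls. Of 59 tested genes of lipid transfer and the cuticle, the waxy layer that limits water loss, 18 rose and 5 fell (median 1.07, and -0.41 with all 6). For lipid and cuticle genes the counts were 3 and 0 of 67 with all 6, 6 to 15 and 0 to 4 with 1 of the 4 left out and 6 and 1 of 47 in deposited TPM. OsRCI2-5, of a family of small membrane proteins, was at 0, 4.71 and 0 in control and 166, 1482 and 1789 in drought 1, 2 and 3 as labelled. OsDSSR1, a small peptide gene, stood at 4.47, 3.12 and 9.16 in control and 355, 1198 and 429.8 in drought, and had the smallest adjusted p with all 6 among named genes that rose (0.000522). OsADF3, an actin depolymerizing factor, rose by 7.62 ± 1.02 and by 6.83 ± 0.854 with all 6. OscytME3, a cytosolic malic enzyme, rose by 8.99 ± 0.673. OsJRL, a lectin, and Osoxo4, an oxalate oxidase, rose by 9.72 ± 0.796 and 8.74 ± 1.1, and both were at 0 in the library labelled drought 1. Using all 6 libraries, OsLTP2.5, OsLTPd6, OsRCI2-5 and OscytME3 were also called and OsJRL and Osoxo4 at Os03g0693800 were not.

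Genes that make or break down abscisic acid had calls in both directions. The 9-cis-epoxycarotenoid dioxygenases (NCED) make its precursor in the step that limits the rate, and OSNCED3 (Os07g0154100, chromosome 7, 2870686 to 2872829) stood at 4.38, 8.32 and 22.5 in the 3 controls, 11.4 in the library labelled drought 1 and 263 and 287 in drought 2 and 3. OsNCED1 (Os02g0704000, chromosome 2, 29026099 to 29028176) stood at 314, 502 and 120.0 in the 3 controls, 70.9 in the library labelled drought 1 and 5.66 and 7.33 in drought 2 and 3. The kept groups were thus in opposite order for the 2 paralogs, with log2 differences of 5.28 ± 0.891 and -5.74 ± 0.806 (adjusted p = 0.00365 and 0.00137). With all 6 libraries OsNCED1 fell (-4.08 ± 0.923, adjusted p = 0.0308) and OSNCED3 was not called (3.22 ± 1.13, 0.142). OsNCED2 rose from 2.44, 2.07 and 11.2 to 55.7 and 41.3, with the library labelled drought 1 at 0. Of the list of 14 tested genes 3 rose and 2 fell, the last rise being OsABA8OX2 (3.01 ± 0.688), a hydroxylase that breaks abscisic acid down, and the other fall OsAAO (-3.04 ± 0.579). For OsABA8OX2 control 3 stood at 31.4, between drought 2 and 3 at 25.8 and 32.3. Called members were 0 and 1 of 16 for all 6, 1 to 2 and 1 to 2 without 1 of the 4, and 2 and 1 of 13 in deposited TPM. Across all 6 libraries, OsNCED2 at Os12g0617400, OsABA8OX2 and OsAAO were not called.

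In the gene families that signal downstream of the hormone most members were not called, with a few large rises. The phosphatase and bZIP lists were matched by symbol and hold whole families, so their counts do not describe the pathway's members alone. Of 66 tested protein phosphatases 2C, a family whose clade A members hold the SnRK2 kinases inactive, 11 rose and 3 fell (16.7% and 4.55%). The counts were 3 and 2 of 67 with all 6 libraries, 5 to 7 and 0 to 4 with 1 of the 4 left out, and 2 and 0 of 56 in deposited TPM. The list median was -0.02 and took either sign with the scaling. PP2C1 (Os09g0325700, chromosome 9, 9567471 to 9568877) stood at 8.02, 11.96 and 13.4 in the 3 controls, 164 in the library labelled drought 1 and 159 and 223 in drought 2 and 3. Its 3 drought libraries were close together and clear of all controls (4.13 ± 0.421, and 3.93 ± 0.443 with all 6, adjusted p = 0.00108). OsPP2C59 rose further, from 9.78, 2.31 and 0 to 945 and 1036 with 66.2 in the library labelled drought 1, and OsPP2C51 rose by 5.75 ± 0.809 with that library at 0. Among the 10 SnRK2 kinases SAPK4 stood at 25.4, 25.3 and 48.3 in the 3 controls, 294 in the library labelled drought 1 and 149 and 178 in drought 2 and 3, with the 3 drought libraries above the 3 controls. SAPK1 went from 19.99, 17.2 and 7.6 to 256 and 255 with 0 in the library labelled drought 1, and SAPK5 fell (-1.89 ± 0.565), a call that ended without any 1 of the 4 libraries. For SnRK2 genes the counts were 1 and 1 of 10 with all 6, 2 and 0 to 1 with 1 of the 4 left out and 0 and 1 of 10 in deposited TPM. The other 7 kinases were not called with 4 libraries, and with all 6 SAPK7 fell (-4.37 ± 1, adjusted p = 0.0325). Of the 5 tested receptors (PYL/RCAR) 0 were called with 4 libraries, with log2 differences from -3.58 to 0.03, and with all 6 OsPYL/RCAR3 fell (-4.19 ± 1.01, adjusted p = 0.0403). Of 56 bZIP factors 8 rose and 2 fell (14.3% and 3.57%), with a median of 0.45, and -0.02 in deposited TPM. Called members were 1 and 2 of 54 for all 6, 2 to 6 and 1 to 3 without 1 of the 4, and 0 and 2 of 44 in deposited TPM. BZIP12 stood at 17.7, 20.1 and 60.3 in control and at 108, 121 and 119.8 in drought. When all 6 were used, OsPP2C59 and SAPK4 were also called and OsPP2C51, SAPK1, SAPK5 and BZIP12 were not.

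Enzymes of osmolytes rose in 6 of 12 tested cases and fell in 0 (median 2.30, and 1.24 with all 6). All 6 libraries gave 4 and 0 of 13, leaving out 1 of the 4 gave 4 and 0, and deposited TPM gave 3 and 1 of 12. P5CS2 (chromosome 1, 36430978 to 36440843), the enzyme that commits glutamate to proline, stood at 11.5, 9.86 and 27.4 in the 3 controls, 109.6 in the library labelled drought 1 and 913 and 1007 in drought 2 and 3. The galactinol synthase gene wsi76 (chromosome 7, 29220339 to 29221843), on the way to raffinose, stood at 33.1, 20.4 and 26.8 in the 3 controls, 65.4 in the library labelled drought 1 and 2708 and 2134 in drought 2 and 3. OsGolS1, another galactinol synthase, stood at 24.5, 48.5 and 38.02 in the 3 controls, 159.8 in the library labelled drought 1 and 448 and 846 in drought 2 and 3. In all 3 genes the library labelled drought 1 lay between the controls and drought 2 and 3. The 3 rose by 6.36 ± 0.669, 6.48 ± 0.735 and 4.12 ± 0.538, and were also called with all 6 (adjusted p = 0.00799, 0.0352 and 0.00844). OsProDH, which degrades proline, was not called (-0.76 ± 0.873).

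Sugar genes rose in 13 (18.3%) and fell in 5 (7.04%) of 71 tested cases, where all loci had 6.8% and 7.6% (median 0.48). Rises and falls were 3 and 0 of 79 with all 6, 5 to 11 and 1 to 5 with 1 of the 4 left out, and 5 and 2 of 65 in deposited TPM. OsAGPL3 and OsAGPL1 encode large subunits of ADP-glucose pyrophosphorylase, the enzyme that commits glucose to starch, and were called in opposite directions. OsAGPL3 stood at 24.3, 9.08 and 22.8 in the 3 controls, 105 in the library labelled drought 1 and 559 and 823 in drought 2 and 3. OsAGPL1 stood at 106, 112 and 156 in the 3 controls, 286 in the library labelled drought 1 and 15.9 and 8.25 in drought 2 and 3. In the library labelled drought 1 both were above every control, so it shared the direction of drought 2 and 3 for the first and not for the second. The sucrose exporter gene OsSWEET15 rose from 1.49, 1.58 and 41.5 to 154 and 297 and OsNIN1, a neutral invertase, from 13.8, 9.29 and 11.96 to 411 and 479.8. OsSWEET1a, of the same family, fell (-4.06 ± 0.7). In the 6-library comparison, OsAGPL3 was also called and OsAGPL1, OsSWEET15, OsNIN1 and OsSWEET1a were not.

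Nitrogen genes had calls in both directions, among them genes that make and use glutamine and asparagine. Glutamine synthetase has cytosolic and chloroplast forms. A cytosolic gene, OsGS1 at Os03g0712800 (chromosome 3, 28822424 to 28826321), stood at 2.07, 1.52 and 0 in the 3 controls, 0 in the library labelled drought 1 and 706 and 897 in drought 2 and 3. The chloroplast form OsGLN2 (chromosome 4, 33624428 to 33631025) stood at 445, 478 and 963 in the 3 controls, 945 in the library labelled drought 1 and 34.3 and 17.2 in drought 2 and 3. In drought 2 and 3 OsGS1 at this locus was far above OsGLN2, and in every control and in the library labelled drought 1 the order was the reverse. Levels of any other glutamine synthetase genes are not given here, so this order does not describe all cytosolic forms together. The log2 differences were 8.16 ± 0.591 and -4.19 ± 0.697 (adjusted p = 9.28e-05 and 0.00337), and neither was called with all 6 (adjusted p = 0.132 and 0.183). ASN1, an asparagine synthetase, stood at 1.07, 1.1 and 13.03 in the 3 controls, 28.1 in the library labelled drought 1 and 452 and 349 in drought 2 and 3. OsASNase2, an asparaginase that releases ammonium from asparagine, stood at 673, 745 and 372 in the 3 controls, 14.5 in the library labelled drought 1 and 6.91 and 30.4 in drought 2 and 3. Here all 3 drought libraries lay below all 3 controls, and the fall was called with all 6 (-5.19 ± 0.518, adjusted p = 0.000804). Of the 37 tested nitrogen genes 4 rose and 4 fell (10.8% each, against 6.8% and 7.6% of all loci), with a median of 0.03 that took either sign with the scaling. Called members were 1 and 3 of 44 for all 6, 3 to 6 and 3 to 4 without 1 of the 4, and 3 and 3 of 33 in deposited TPM. The largest fall of the list was at a locus named Amt (Os04g0623800; -5.69 ± 0.595), whose product the tables do not give. Using all 6 libraries, ASN1 and Amt were also called.

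Genes of the photosynthetic light reactions fell in 19 of 33 tested cases and rose in 1 (median -3.07, and -2.42 with all 6). The counts were 0 and 6 of 33 with all 6 libraries, 0 to 1 and 12 to 14 with 1 of the 4 left out, and 1 and 16 of 33 in deposited TPM. PsbY (Os08g0119800), a small photosystem II subunit, stood at 398, 835 and 1150.5 in the 3 controls, 167 in the library labelled drought 1 and 3.72 and 11.3 in drought 2 and 3. PsbX, another, stood at 246, 336 and 212 in the 3 controls, 159 in the library labelled drought 1 and 7.94 and 3.8 in drought 2 and 3. Drought 2 and 3 were the lowest 2 of the 6 libraries in both genes, and the library labelled drought 1 was below every control but nearer to them. PsbR, which stabilises the oxygen-evolving complex, stood at 1308, 538 and 799 in the 3 controls, 2334 in the library labelled drought 1 and 14.3 and 5.42 in drought 2 and 3, the highest value being that of the library labelled drought 1. The locus annotated next to it, OsPsbR2, was the rise: it was at 0, 0.832 and 0 in control, 0 in the library labelled drought 1 and 292 and 70.9 in drought 2 and 3. Members that were not called included CAB1R (-0.44 ± 0.891), FNR (-0.64 ± 0.441) and PSBS2 (2.08 ± 1.07). Across all 6 libraries, PsbY was also called and PsbX, PsbR and OsPsbR2 were not.

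In the Calvin cycle 7 of 15 genes fell and 1 rose (median -1.20), and 4 of the falls were Rubisco small subunits, which complete the enzyme that fixes carbon dioxide. All 6 libraries gave 1 and 4 of 15, leaving out 1 of the 4 gave 1 and 6, and deposited TPM gave 0 and 6 of 15. RbcS3 (chromosome 12, 11262587 to 11263636), the most abundant of them, stood at 6973, 9207 and 4032 in the 3 controls, 2821 in the library labelled drought 1 and 198 and 165 in drought 2 and 3. RbcS5 stood at 3495, 4330.2 and 1699.5 in the 3 controls, 1004 in the library labelled drought 1 and 20.8 and 42.5 in drought 2 and 3. Drought 2 and 3 lay far below the rest, and the library labelled drought 1 lay between them and control 3, the lowest control. Both were called with all 6 (adjusted p = 0.0282 and 0.0203). The loci named RBCS at Os12g0292400 and Os12g0274700 fell (-6.11 ± 0.504 and -6.15 ± 0.761), and reads may be shared among the 4. RbcS1 (-0.03 ± 0.848) and the Rubisco activase OsRcaII (1.14 ± 2.03) were not called. The rise was PGK at Os06g0668200, a phosphoglycerate kinase, which stood at 38.6, 78.4 and 44.4 in the 3 controls, 189 in the library labelled drought 1 and 660.4 and 908 in drought 2 and 3, every drought library above every control. When all 6 were used, RBCS at Os12g0292400 and PGK were also called and RBCS at Os12g0274700 was not.

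Photorespiration recycles the product of Rubisco's reaction with oxygen through peroxisome and mitochondrion, and 7 of its 15 genes fell and 2 rose (median -2.03). For photorespiration genes the counts were 0 and 2 of 15 with all 6, 0 and 4 to 6 with 1 of the 4 left out and 0 and 4 of 14 in deposited TPM. OsGDCH (chromosome 10, 19894753 to 19896794), the H protein of glycine decarboxylase, had the largest fall of all loci tested, -8.49 ± 0.682. It stood at 732, 1054 and 133 in the 3 controls, 266 in the library labelled drought 1 and 0 and 5.003 in drought 2 and 3. The library labelled drought 1 was above control 3, and with all 6 the gene was not called (-5.33 ± 1.42, adjusted p = 0.0581). The glycolate oxidases OsGLO1 and GLO4 fell (-3.85 ± 0.547 and -4.21 ± 0.43) and GLO3 rose (3.55 ± 0.958). Chlorophyll synthesis had 9 falls and 0 rises among 17 genes (median -2.76). Called members were 0 and 0 of 17 for all 6, 0 and 2 to 5 without 1 of the 4, and 0 and 5 of 16 in deposited TPM. Its largest falls were YGL1, chlorophyll synthase (-5.06 ± 0.807), ChlM, a methyltransferase of the magnesium branch (-4.53 ± 0.586), and OsCHL (-3.43 ± 0.883), with HEME at -3.34 ± 0.742. YGL1 stood at 73.2, 94.9 and 18.1 in the 3 controls, 102 in the library labelled drought 1 and 0 and 5.35 in drought 2 and 3, the library labelled drought 1 being above every control. In the 6-library comparison, GLO4 was also called and OsGLO1, GLO3, YGL1, ChlM, OsCHL and HEME were not.

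Of 13 tested genes of chlorophyll breakdown and senescence 2 rose and 1 fell (median 1.29). All 6 libraries gave 0 and 0 of 13, leaving out 1 of the 4 gave 0 to 1 and 0 to 1, and deposited TPM gave 0 and 0 of 10. SGR, the stay-green protein that removes magnesium from chlorophyll, stood at 87.9, 75.1 and 63.5 in the 3 controls, 55.9 in the library labelled drought 1 and 883 and 1080.4 in drought 2 and 3. OsPAO, which opens the ring, stood at 92.3, 88.97 and 64.96 in the 3 controls, 151 in the library labelled drought 1 and 491 and 576 in drought 2 and 3. Drought 2 and 3 were clear of all controls in both. The call of SGR ended when any 1 of the 4 libraries was left out, with its rise at 3.57 ± 0.724. Ribosomal protein genes had 8 falls and 0 rises among 80 (10%, against 7.6% over all loci), with 3 of 80 above 0 and a median of -1.11. The counts were 0 and 0 of 80 with all 6 libraries, 0 and 2 to 9 with 1 of the 4 left out, and 0 and 3 of 79 in deposited TPM. RPL5 (Os01g0278900) fell from 214, 225 and 143 to 8.43 and 8.6, with 171 in the library labelled drought 1, and rpl12-2 fell (-6.46 ± 1). Using all 6 libraries, SGR, OsPAO, RPL5 at Os01g0278900 and rpl12-2 were not called.

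Markers of leaf mesophyll, the photosynthetic tissue, were above 0 at all 18 loci, as a leaf should have them, and 12 of 18 fell and 0 rose (median -3.85). For mesophyll marker genes the counts were 0 and 6 of 18 with all 6, 0 and 9 to 10 with 1 of the 4 left out and 0 and 10 of 18 in deposited TPM. They are mostly the Rubisco and photosystem genes above. Their summed level was 1.87 to 3.48% of nuclear TPM in the controls, 1.96% in the library labelled drought 1, and 0.464 and 0.290% in drought 2 and 3. Seed storage, root, shoot meristem, guard cell and vascular wall markers had 3 to 7 tested members each and 0 calls in either direction. Of 35 seed storage loci 19 were at 0 in all 6 libraries. The part of a changed mix of cells in these results was not tested.

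**Figure D3:**
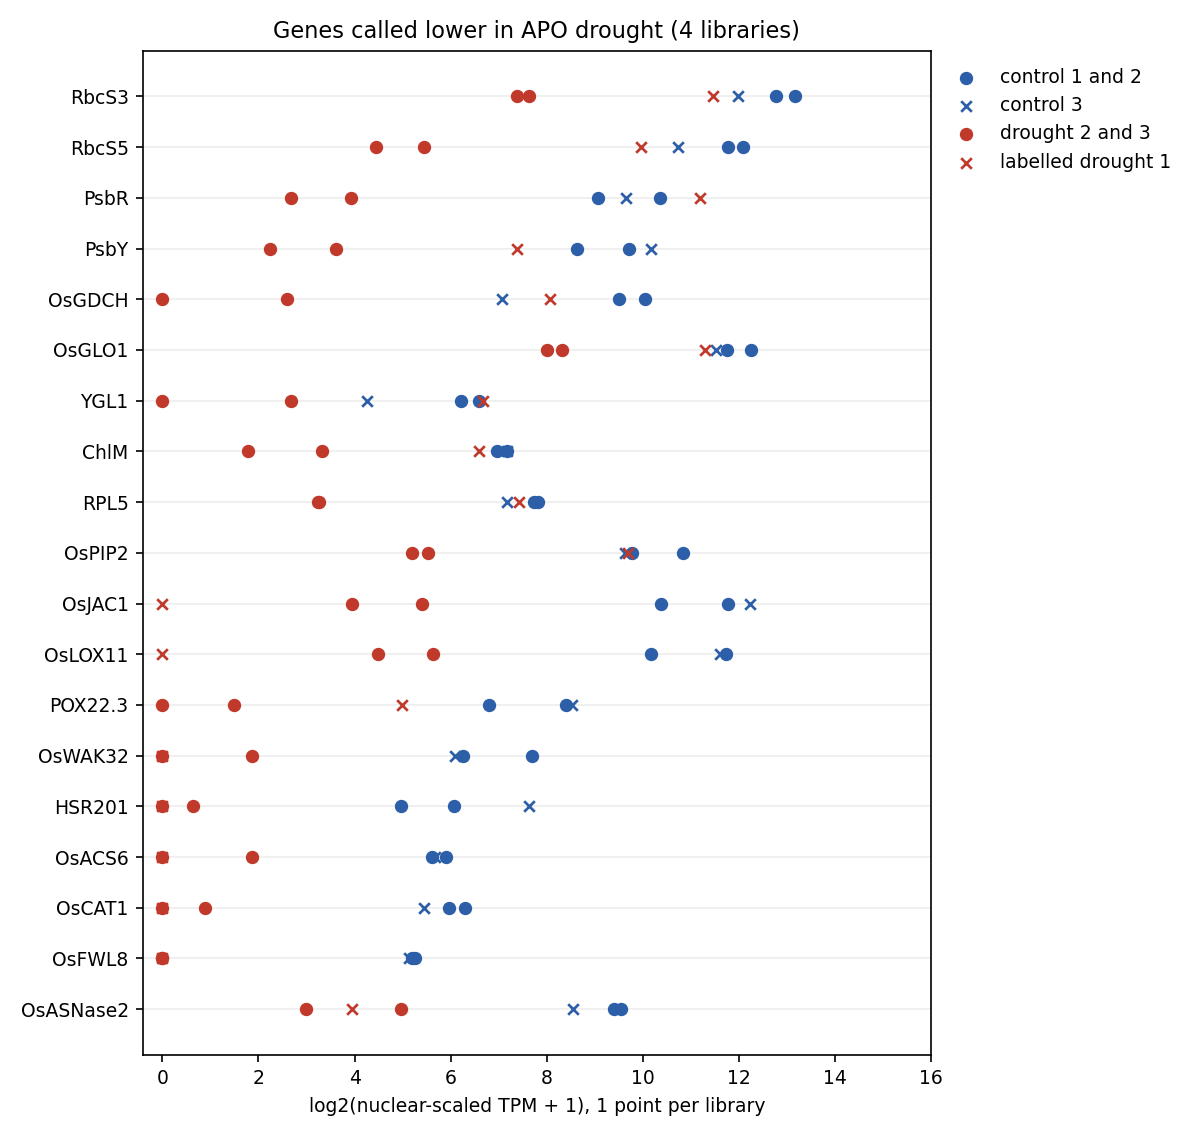
Level in each of the 6 APO libraries, as log2(nuclear-scaled TPM + 1) on the x axis, of 19 genes called lower in drought with 4 libraries (rows); circles are the 4 libraries compared and crosses are control 3 and the library labelled drought 1. In the photosynthesis genes at the top the library labelled drought 1 lies with or near the controls, and in genes such as OsJAC1, OsWAK32 and OsFWL8 it lies at 0.

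Some of the named falls were shared by all 3 drought libraries. OsJAC1 (chromosome 12, 8239432 to 8241147), a jacalin-related lectin, stood at 3496, 1340.0 and 4827 in the 3 controls, 0 in the library labelled drought 1 and 14.5 and 41.6 in drought 2 and 3. OsLOX11, a lipoxygenase (chromosome 12, 22854591 to 22860198), stood at 3433, 1155 and 3147 in the 3 controls, 0 in the library labelled drought 1 and 21.4 and 48.7 in drought 2 and 3. OsWAK32, a wall-associated kinase, stood at 206, 75.2 and 67.7 in the 3 controls, 0 in the library labelled drought 1 and 0 and 2.63 in drought 2 and 3. Every drought library was far below every control in all 3 genes, and they were called with all 6 (adjusted p = 0.00212, 0.0071 and 0.00245). OsACS6, of ethylene synthesis, stood at 58.7, 47.8 and 50.2 in control and at 0, 0 and 2.64 in drought as labelled. OsCAT1 went from 61.4, 77.5 and 42.8 to 0, 0 and 0.841, with the joint smallest adjusted p of named falls with all 6 (0.000804). OsFWL8 was at 37.1, 35.9 and 34.3 in control and listed at 0 in every drought library. HSR201 (-5.20 ± 0.608), the peroxidase POX22.3 (-6.86 ± 1.15) and Rir1b (-5.96 ± 1.44) also fell. A library with few loci above 0 reads 0 for many genes, and the part of that in the zeros of the library labelled drought 1 was not tested. That library also had 0 of 17 APO-typical genes above 1, and OsFWL8 and HSR201 had changes of 0 in IR64. Whether its cultivar label has a part in these zeros was not tested. Across all 6 libraries, OsACS6, OsFWL8, HSR201, POX22.3 and Rir1b at Os10g0569800 were also called.

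Defence and jasmonate lists had calls in both directions. Of 49 tested pathogenesis-related genes 16 rose and 1 fell (median 1.39, and -0.15 with all 6). The counts were 3 and 1 of 56 with all 6 libraries, 7 to 12 and 1 with 1 of the 4 left out, and 9 and 4 of 45 in deposited TPM. OsPR4 (chromosome 11, 22511506 to 22512374) stood at 31.1, 37.2 and 45.8 in the 3 controls, 213 in the library labelled drought 1 and 1108 and 1275 in drought 2 and 3, with each drought library above each control. The chitinase gene Cht4(t)*(Chi4), at Os04g0493400, stood at 4.38, 5.91 and 19.5 in the 3 controls, 149 in the library labelled drought 1 and 196 and 259.6 in drought 2 and 3. OsPR4c rose by 6.29 ± 0.588 and the glucanase gene Gns2 by 5.70 ± 0.592. Jasmonate synthesis and its JAZ repressors had 5 rises and 6 falls among 40 genes (12.5% and 15%), OsJAZ6 being a fall (-3.08 ± 0.504). For jasmonate genes the counts were 0 and 4 of 45 with all 6, 1 to 5 and 1 to 6 with 1 of the 4 left out and 2 and 4 of 38 in deposited TPM. WRKY factors had 2 rises and 5 falls among 74 (2.7% and 6.76%), no more than the 6.8% and 7.6% of all loci (median -0.69). Called members were 0 and 4 of 85 for all 6, 0 to 3 and 1 to 2 without 1 of the 4, and 2 and 7 of 61 in deposited TPM. WRKY45, known for its part in blast resistance, stood at 526, 612 and 355 in the 3 controls, 252 in the library labelled drought 1 and 18.3 and 17.03 in drought 2 and 3. WRKY74 and OsWRKY64 fell (-4.84 ± 1.25 and -4.03 ± 0.704), and OsWRKY64 was also called with all 6 (adjusted p = 0.00734). When all 6 were used, OsPR4, Cht4(t)*(Chi4), OsPR4c and OsJAZ6 were also called and Gns2, WRKY45 and WRKY74 were not.

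Rises outnumbered falls among ERF, NAC and MYB factors in nuclear-scaled TPM, and not in deposited TPM. ERF and DREB factors had 17 rises and 0 falls among 78 (median 0.89, and -0.16 in deposited TPM), NAC factors 8 and 2 among 57 (0.33 and -0.26), and MYB factors 9 and 0 among 44 (0.64). For ERF and DREB genes the counts were 3 and 0 of 98 with all 6, 5 to 13 and 0 to 1 with 1 of the 4 left out and 2 and 6 of 59 in deposited TPM. For NAC genes the counts were 2 and 0 of 72 with all 6, 2 to 6 and 0 to 2 with 1 of the 4 left out and 0 and 1 of 48 in deposited TPM. For MYB genes the counts were 1 and 0 of 46 with all 6, 2 to 7 and 0 with 1 of the 4 left out and 3 and 3 of 34 in deposited TPM. ONAC088 (chromosome 5, 20678578 to 20680160) stood at 27.8, 28.9 and 24.8 in the 3 controls, 376 in the library labelled drought 1 and 317 and 237 in drought 2 and 3. Its 3 drought libraries were close together and clear of its 3 controls, and it was called in both comparisons (adjusted p = 0.000628 and 0.00185). OsMyb1R rose by 5.47 ± 1.08. NAC58 and NAC5 rose by 3.66 ± 0.588 and 3.58 ± 0.685. OsDREB1C stood at 16.6, 6.26 and 6.92 in control and 64.7, 139 and 115 in drought. The bHLH factors had 5 rises and 4 falls among 79 (6.33% and 5.06%, under the 6.8% and 7.6% of all loci; median 0.09, and -0.56 in deposited TPM), and OsbHLH084 stood at 38.98, 12.1 and 149 in control and 0, 0 and 0.322 in drought. For bHLH genes the counts were 1 and 1 of 91 with all 6, 0 to 7 and 1 to 4 with 1 of the 4 left out and 0 and 2 of 62 in deposited TPM. In the 6-library comparison, OsMyb1R, OsDREB1C and OsbHLH084 were also called and NAC58 and NAC5 were not.

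Of 22 HD-ZIP factors 7 rose and 4 fell (31.8% and 18.2%, against 6.8% and 7.6% of all loci). All 6 libraries gave 3 and 2 of 25, leaving out 1 of the 4 gave 3 to 5 and 1 to 2, and deposited TPM gave 3 and 2 of 19. HOX24 (chromosome 2, 26143311 to 26144729) stood at 3.11, 2.15 and 29.8 in the 3 controls, 154 in the library labelled drought 1 and 606 and 562 in drought 2 and 3. HOX22 (chromosome 4, 27124166 to 27125512) stood at 0, 5.98 and 15.5 in the 3 controls, 218 in the library labelled drought 1 and 311 and 563 in drought 2 and 3. In both the 3 drought libraries lay above the 3 controls. Oshox7 rose by 4.09 ± 0.61 with 4 libraries. Oshox4 went from 62.5, 33.4 and 47.3 in control to 0, 1.72 and 4.32 in drought, a fall called in both comparisons (-3.62 ± 0.562, and -4.28 ± 0.661 with all 6). Heat shock factors had 5 rises and 0 falls among 19 (26.3% and 0%), with a median of 1.10. For heat shock factor genes the counts were 1 and 0 of 20 with all 6, 1 to 3 and 0 with 1 of the 4 left out and 2 and 0 of 19 in deposited TPM. OsHsfA7 stood at 1.94, 1.43 and 15.3 in the 3 controls, 113 in the library labelled drought 1 and 91.7 and 98.5 in drought 2 and 3. Using all 6 libraries, HOX24, HOX22 and OsHsfA7 were also called and Oshox7 was not.

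Chaperones and antioxidant enzymes had called members in both directions, some of which are in the plot of opposite members. Heat shock proteins had 10 rises and 2 falls among 36 (27.8% and 5.56%), with a median of 0.89, and -0.50 in deposited TPM. The counts were 2 and 0 of 39 with all 6 libraries, 3 to 9 and 1 to 2 with 1 of the 4 left out, and 3 and 0 of 30 in deposited TPM. HSP70 at Os03g0277300 stood at 4.57, 6.12 and 32.6 in the 3 controls, 29.8 in the library labelled drought 1 and 1333 and 2024 in drought 2 and 3. OsHSP70 at Os03g0821100 stood at 194, 213 and 234 in the 3 controls, 207 in the library labelled drought 1 and 35.2 and 38.1 in drought 2 and 3. The library labelled drought 1 sat with the controls in both. Hsp90 at Os04g0107900 and the small heat shock protein OsHSP18.0-CIII rose by 6.46 ± 1.03 and 6.06 ± 1.32. DnaJ co-chaperones had 4 rises and 4 falls among 83 (4.82% each, under the 6.8% and 7.6% of all loci), OsDjC50 rising (5.27 ± 1.35) and OsDjC13 falling (-3.91 ± 0.384). Called members were 0 and 0 of 83 for all 6, 1 to 2 and 1 to 5 without 1 of the 4, and 1 and 1 of 80 in deposited TPM. Antioxidant enzymes had 6 rises and 6 falls among 31 (19.4% each). All 6 libraries gave 2 and 1 of 32, leaving out 1 of the 4 gave 0 to 2 and 3 to 4, and deposited TPM gave 0 and 1 of 30. Catalases remove hydrogen peroxide, and CATB rose from 152, 191 and 55.05 to 763 and 1281 while CATA1 fell from 1042, 424 and 406 to 22 and 14.04 and CATC from 2349, 1949 and 1262 to 371 and 198. The library labelled drought 1 lay within the controls for all 3, at 154, 445 and 2071. The call of CATA1 ended when any 1 of the 4 libraries was left out, and that of CATB did in 3 of these 4 cases. Glutathione S-transferases had 10 rises and 2 falls among 47 (21.3% and 4.26%), with OsGSTU40 at 4.92 ± 0.585. Their median was 0.35, and -0.52 in deposited TPM. For glutathione S-transferase genes the counts were 2 and 0 of 53 with all 6, 3 to 7 and 0 to 4 with 1 of the 4 left out and 4 and 4 of 39 in deposited TPM. Across all 6 libraries, HSP70 at Os03g0277300 and OsGSTU40 were also called and OsHSP70 at Os03g0821100, Hsp90, OsHSP18.0-CIII, OsDjC50, OsDjC13, CATB, CATA1 and CATC were not.

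**Figure D4:**
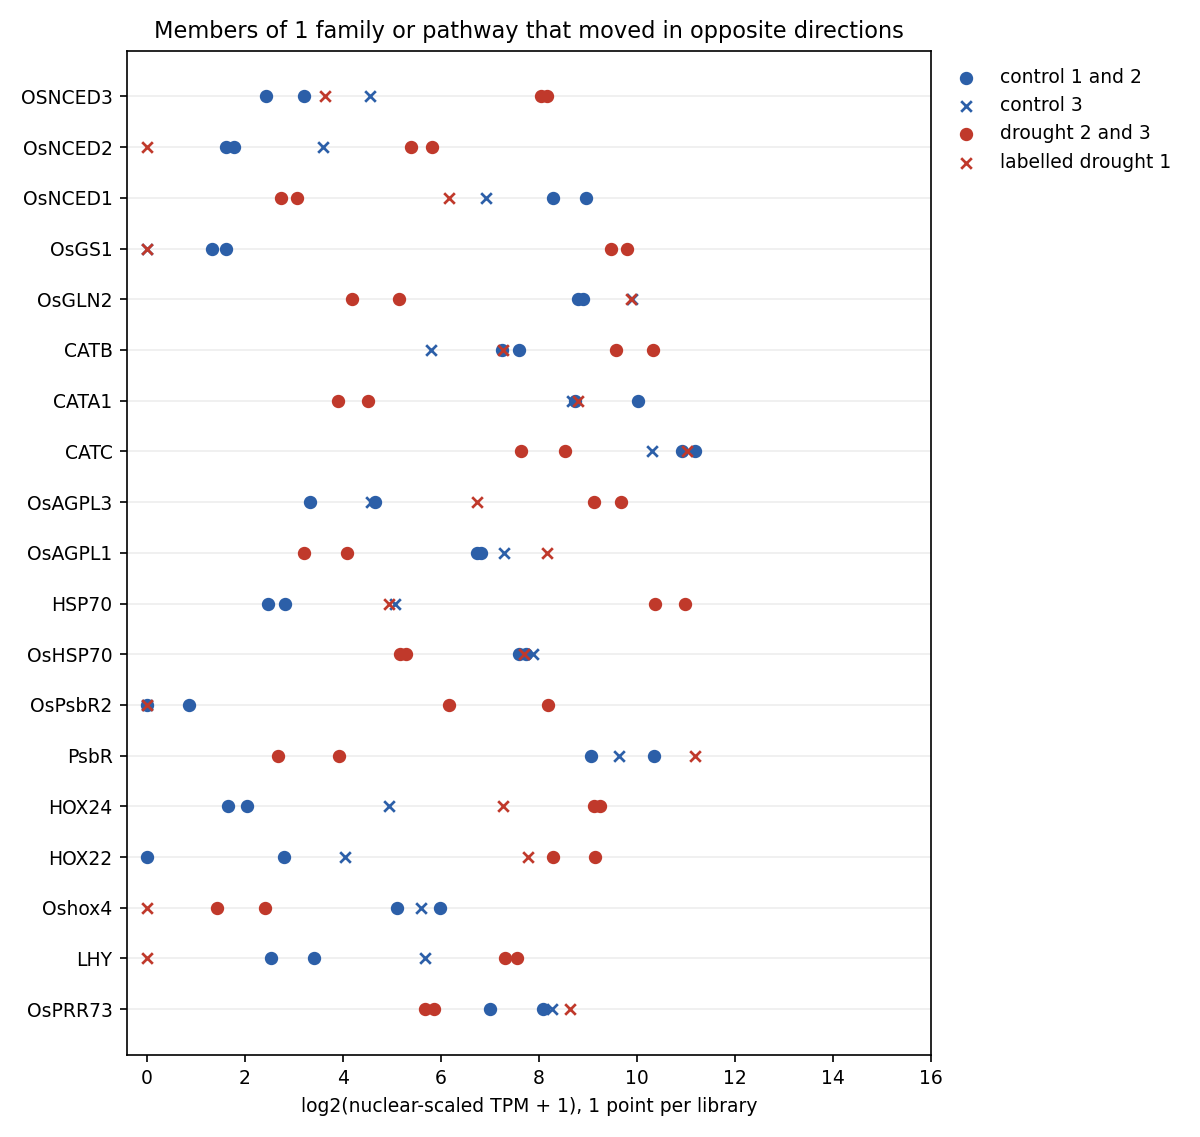
Level in each of the 6 APO libraries, as log2(nuclear-scaled TPM + 1) on the x axis, of 19 genes from families or pathways with calls in both directions; circles are the 4 libraries compared and crosses are control 3 and the library labelled drought 1. Red circles lie right of blue ones for OSNCED3, OsGS1, CATB, OsAGPL3, HSP70 and HOX24, and left of them for OsNCED1, OsGLN2, CATA1, CATC, OsAGPL1, OsHSP70 and Oshox4.

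Aquaporins, which pass water through membranes, had 1 rise and 2 falls among 24 (4.17% and 8.33%, near the 6.8% and 7.6% of all loci). Their median was -0.89. The counts were 0 and 0 of 27 with all 6 libraries, 1 to 3 and 1 to 2 with 1 of the 4 left out, and 1 and 1 of 22 in deposited TPM. OsPIP2 (Os09g0541000), a plasma membrane aquaporin, stood at 877, 1833 and 793 in the 3 controls, 824 in the library labelled drought 1 and 35.6 and 45.5 in drought 2 and 3. OsTIP3, of the vacuole membrane, was listed at 0 in the controls and in the library labelled drought 1 and stood at 9.998 and 21.9 in drought 2 and 3. Auxin response genes had 5 rises and 10 falls among 82 (6.1% and 12.2%), with falls in OsIAA17 (-4.45 ± 0.573) and the auxin transporter gene OsPIN5a (-4.12 ± 0.784). Called members were 0 and 2 of 102 for all 6, 1 to 12 and 4 to 9 without 1 of the 4, and 1 and 5 of 58 in deposited TPM. Of 28 cellulose synthase and related genes 1 rose and 2 fell (3.57% and 7.14%), among them OsCslA11 (-4.96 ± 0.848). For cellulose synthase genes the counts were 0 and 2 of 33 with all 6, 1 and 2 to 4 with 1 of the 4 left out and 1 and 2 of 24 in deposited TPM. Calcium-dependent and CBL-interacting kinases had 4 rises and 2 falls among 48 (8.33% and 4.17%). All 6 libraries gave 2 and 0 of 56, leaving out 1 of the 4 gave 2 to 3 and 0, and deposited TPM gave 2 and 1 of 44. CIPK14 stood at 2.47, 2.53 and 4.8 in the 3 controls, 65.6 in the library labelled drought 1 and 67.95 and 73.8 in drought 2 and 3, the 3 drought libraries being close together and clear of the controls. CIPK15, its close copy on chromosome 11, with which it may share reads, stood at 1.28, 0.956 and 7.52 in the 3 controls, 30.2 in the library labelled drought 1 and 120.2 and 154 in drought 2 and 3. Autophagy genes, which recycle cell contents, had 7 rises and 0 falls among 27 (25.9% against 6.8% over all loci; median 0.50, and -0.06 in deposited TPM). Rises and falls were 0 and 0 of 28 with all 6, 0 to 1 and 0 to 1 with 1 of the 4 left out, and 1 and 0 of 26 in deposited TPM. OsATG9a and OsATG18d rose by 2.15 ± 0.427 and 4.22 ± 0.972. Of 15 clock genes 1 rose and 1 fell (6.67% each, near the 6.8% and 7.6% of all loci). The locus named LHY (Os04g0583900) rose by 4.46 ± 0.638 and OsPRR73 fell (-1.78 ± 0.437). For clock genes the counts were 0 and 0 of 15 with all 6, 1 and 0 to 1 with 1 of the 4 left out and 2 and 0 of 15 in deposited TPM. The hour of sampling is not given in the sources used here, and its part in these results was not tested. When all 6 were used, OsPIN5a, OsCslA11 at Os08g0434632, CIPK14 and CIPK15 were also called and OsPIP2 at Os09g0541000, OsTIP3 at Os10g0492600, OsIAA17, OsATG9a, OsATG18d, LHY and OsPRR73 were not.

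**Figure D5:**
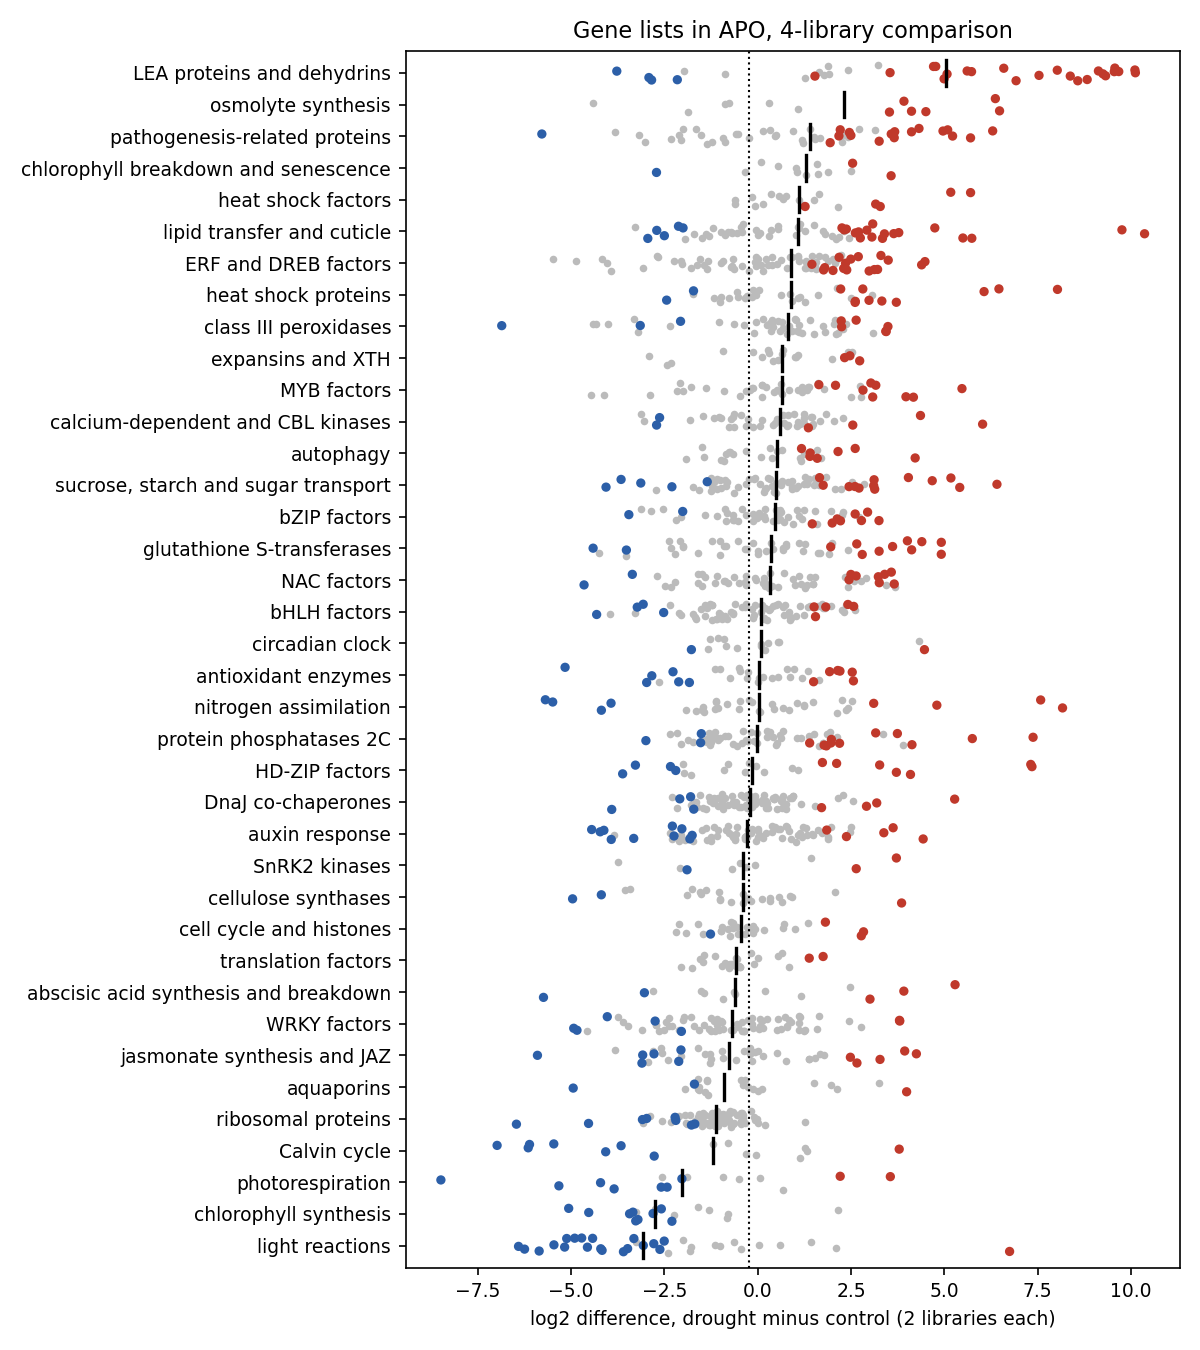
Log2 difference between drought and control in the 4-library comparison (x axis) for every tested member of 38 gene lists with 10 or more tested members (rows); red and blue points are genes called higher and lower, grey points are not called, black bars are list medians and the dotted line is the median of all loci, -0.24. LEA proteins lie highest (median 5.03) and light reactions lowest (-3.07); the medians of 17 of the 38 lists change sign with the scaling.

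Class III peroxidases had 6 rises and 3 falls among 52 (11.5% and 5.77%), and expansins and XTH enzymes 3 and 0 among 21 (14.3% and 0%). Cell cycle genes and histones had 3 and 1 among 32 (9.4% and 3.1%), and translation factors 2 and 0 among 27 (7.41% and 0%). All loci had 6.8% and 7.6%. For class III peroxidase genes the counts were 0 and 2 of 88 with all 6, 1 to 12 and 1 to 2 with 1 of the 4 left out and 1 and 6 of 31 in deposited TPM. For expansin genes the counts were 0 and 1 of 41 with all 6, 0 to 5 and 0 with 1 of the 4 left out and 0 and 1 of 12 in deposited TPM. For cell cycle genes the counts were 0 and 0 of 40 with all 6, 0 to 2 and 0 to 1 with 1 of the 4 left out and 0 and 0 of 27 in deposited TPM. For translation factor genes the counts were 0 and 0 of 27 with all 6, 0 and 0 to 1 with 1 of the 4 left out and 0 and 0 of 27 in deposited TPM.

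Of 114 genes named here as rising or falling, 82 were called whichever of the 4 libraries was left out. Of the 63 rises among them 36 were also called with all 6 libraries, and of the 51 falls 24. The library labelled drought 1 was above every control in 40 of these 63 rises and at 0 in 16. It was below every control in 30 of these 51 falls. Over all loci, 243 of the 1551 rises and 481 of the 1734 falls were also called with all 6. The 114 were chosen in part for large differences or for calls in both comparisons, so their shares do not describe all calls. Asr3, Asr4, GLO3 and OsCHL, whose differences are given above, are not among the 114 and were not followed here. Besides the genes so described above, PsbR, HEME, WRKY74, OsDjC50 and OsATG18d lost their calls when any 1 of the 4 libraries was left out. CATB, WRKY45, OsABA8OX2, OsDREB1C, OsHSP18.0-CIII, OsPRR73, OsAsr1 and Rir1b at Os10g0569800 lost theirs in 3 of these 4 cases.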

How the data were processed

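The files are 1 StringTie gene table per library. In them the authors' deposited coverage is a signal of mean read depth per base, the deposited FPKM is depth relative to a library's mapped reads, and the deposited TPM sums to the same total in each library over all 38978 annotated genes, rRNA and organelle genes included. Tools named, per the submitters' processing notes, are StringTie 1.3.4, HISAT2 2.1.0 and DESeq2 2.11.38. The genome build is not given in the sources used here, and coordinates are those of the deposited tables.

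TPM was rescaled to a sum of 1000000 over 37849 nuclear loci. Loci with a mean of at least 1 over the libraries of a fit were tested with limma 3.58.1 (R 4.3.3, intensity trend) on log2(TPM + 1) with a mean for each of 4 groups and no replicate block, two-sided, with Benjamini-Hochberg adjustment over all loci tested and a call at adjusted p under 0.05. The moderated standard error pools the spread of both cultivars' libraries. The 4-library comparison left out the library labelled APO drought 1 and APO control 3, whose nuclear share of TPM was below 10%. The fit was tested on simulated data. Tables and figures were made with Python 3.11.15 (numpy 2.4.6, pandas 2.3.3, matplotlib 3.10.9).

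Gene lists were matched by symbol, present for 9826 nuclear loci. Named genes were, among those with a symbol, the 15 largest called differences in each direction with 4 libraries that did not overlap between the groups, at most 4 called members per list and direction, and the 10 smallest adjusted p in each direction among genes called in both comparisons. Not all of these are printed, and members that were not called were added to account for a list. The members, lists and tests were chosen with earlier results of these data known. Other scalings, pseudocounts, filters, weights, a replicate block and leaving out each library were tried. Promoter and protein sequences were not analysed here.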

Additional observations from a re-analysis of the deposited data

Results flagged for a closer look

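The drought change of 51 of the 114 genes named as rising or falling differed between APO and IR64 in the test of the difference itself (limma, interaction contrast of the 10-library fit, adjusted p from 0.00289 to 0.0495), which is why they are listed here. Over all loci 1183 of 22812 differed. The genes were chosen for their change in APO, so this share is no measure of how often the cultivars differ. Each value below in brackets is the log2 change in APO minus that in IR64, with 2 libraries a group in APO and 3 in IR64. IR64 drought 3 had 12.3% of deposited TPM on nuclear loci, against 31.7% or more in each other IR64 library. It had 15357 nuclear loci above 0 and 0.0745 on the relative scale of nuclear depth. It was kept in both comparisons, which limits what its low values and zeros show of the IR64 changes and of the pooled spread.

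In 26 genes the APO value was the lower. Among genes of light harvesting and carbon fixation the differences were -7.75 for OsGDCH (-8.49 in APO and -0.74 in IR64) and -6 for RbcS5 (-6.98 in APO and -0.98 in IR64). The photosystem II subunits PsbY (-6.69) and PsbX (-6.11), the Rubisco small subunits RbcS3 (-4.33) and RBCS at Os12g0292400 (-4.28) and the glycolate oxidases OsGLO1 (-3.8) and GLO4 (-2.88) belong with them. Chlorophyll synthesis gave YGL1 (-5.62), ChlM (-5.43) and HEME (-4.46). The ribosomal protein genes rpl12-2 (-8.21) and RPL5 (-4.79) had changes in IR64 of 1.75 ± 0.820 and 0.26 ± 0.334. Neither change in IR64 was called (limma, adjusted p = 0.289 and 0.719). OsFWL8 and HSR201 had changes of 0 in IR64 on this scale, and gave OsFWL8 (-5.23) and HSR201 (-5.2). A gene at 0 in every IR64 library also has a change of 0. For these genes a difference in response and absence from the IR64 libraries cannot be told apart by the changes alone. Other genes that fell in APO were OsACS6 (-5.24), OsIAA17 (-5.13), OsJAC1 (-5.07), OsCAT1 (-4.9) and OsPIP2 at Os09g0541000 (-4.45). The remaining ones were OsASR5 (-4.16), OsDjC13 (-3.76), OsSWEET1a (-3.66), Amt (-3.34), Oshox4 (-3.01) and OsHSP70 at Os03g0821100 (-2.41).

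In 25 genes the APO value was the higher. The largest was 8.23 for OsGS1 (8.16 in APO and -0.06 in IR64), a cytosolic glutamine synthetase. OsMyb1R followed at 8.11 (5.47 in APO and -2.64 in IR64), and its change in IR64 was not called (limma, adjusted p = 0.164). LEA and dehydrin genes gave OsLEA18 (6.8), RAB21 at Os11g0453900 (4.97), RAB21 at Os11g0454000 (4.74), OsLEA16 (4.64) and LIP9 (3). The chaperones Hsp90 (6.05) and HSP70 at Os03g0277300 (5.35) and the invertase OsNIN1 (4.98) rose in APO and changed by 0.41, 2.68 and 0.20 in IR64. Abscisic acid and kinase genes gave OsNCED2 (4.2), OsPP2C59 (3.99), PP2C1 (2.18), SAPK1 (2.98) and CIPK15 (3.28). Among genes of defence and detoxification the values were OsJRL (6.96), Osoxo4 (6.88), OsPR4c (4.71), Gns2 (3.58), OsPR4 (3.06) and OsGSTU40 (3.7). The last were OsRCI2-5 (5.24), OscytME3 (5.05), NAC5 (3.72) and ONAC088 (2.06).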

How the results depend on the processing

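The number of loci called depended on the setting more than the direction of single genes did. The 793 calls with all 6 libraries became 95 in deposited TPM, 96 in FPKM, 324 with a pseudocount of 0.1, 500 with no filter, 193 with only APO libraries in the fit and 5754 with library weights. The 3285 calls with 4 libraries became 1310 in deposited TPM, 1054 in FPKM and 5726 with only APO libraries. Leaving out 1 library gave 201 to 3063 calls with all 6 and 1022 to 4803 with 4. A library left out of the 4 leaves 1 in its group, whose spread is taken from the others. For the other settings both counts stayed within 1.5 times. The replicate block gave 587 and 2449 calls. Same-numbered control and drought libraries had correlations of deviations of 0.014, -0.16 and -0.23. With libraries so unlike in nuclear share, these values cannot show whether the numbers pair the samples. With all 6, rises were 31.1% of calls, and 63.2% in deposited TPM, 62.5% in FPKM and 46.6% after quantile normalization. The median over all loci with 4 libraries was -0.24, and -0.75 in deposited TPM, -0.72 in FPKM, 0.02 after median-of-ratios scaling and -0.06 after quantile normalization, so differences under that shift have no settled sign. Of the 114 genes named as rising or falling, 0 changed direction under the 11 settings tried for them. Their calls were lost for 54 with all 6 libraries, 22 in deposited TPM, 8 with a pseudocount of 0.1, 8 with the replicate block, 3 after median-of-ratios scaling, 0 after quantile normalization, and 17 to 28 when 1 of the 4 libraries was left out. The causes were not tested. Leaving out libraries for the gene lists, and their other scalings, were chosen after seeing the data. The low share of nuclear TPM in control 3 and the library labelled APO drought 1 limits what they show of genes at low levels. Of the 4 kept APO libraries drought 2 had the least depth on nuclear loci (0.174 on the relative scale), which limits its low values and zeros likewise.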
